A study of Mus musculus with 6 samples.

Results

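The genes that write, remove and protect DNA methylation were followed in mouse E14 embryonic stem cells. They are the writers Dnmt1, Dnmt3a, Dnmt3b and Dnmt3l with the recruiting factor Uhrf1, the erasers Tet1 and Tet2, and the protectors Dppa3, Zfp57 and Trim28. They were chosen by name, with earlier results of these data known. Each was taken from the probeset that carries its symbol alone, with the highest mean over the arrays where a gene has several. All 10 were measured, among 19938 genes on the array. E14 cells, an established line, were cultured with serum and the cytokine leukemia inhibitory factor on mitomycin-C-treated primary embryonic fibroblasts, and markers of both cell types were therefore measured. Untreated cells (2 arrays) were compared with cells given 0.5 mM valproic acid (VPA, 2 arrays) or 0.2 mM sodium butyrate (NaBu, 2 arrays) for 16 h. Both compounds are short-chain fatty acids that inhibit histone deacetylases. VPA is branched and butyrate is not, and their doses differed. The array is an Affymetrix expression array, and every value below is the deposited log2 level of 1 probeset, on which a difference of -1 is a halving. Levels of single genes are not compared with each other, because each probeset has its own response. Where a level is set beside the median gene of an array, this is only a rough guide to a dim signal.

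DNA methylation in mammals is copied after replication by Dnmt1, which Uhrf1 directs to half-methylated sites, and is laid down anew by Dnmt3a and Dnmt3b. Dnmt3l has no catalytic activity of its own and assists both, and it is typical of germ cells and embryonic stem cells. Tet enzymes oxidise methylcytosine, which starts its removal, and both Tet1 and Tet2 are active in embryonic stem cells. Zfp57 binds methylated imprinting control regions and brings in the corepressor Trim28, also called KAP1, while Dppa3, also called Stella, shields methylation in the early embryo.

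With VPA both erasers and the protector Zfp57 stood lower on both arrays than on either control array. The arrays of all 5 writers overlapped with the control arrays. Of all genes, 15.6% had both VPA arrays below both control arrays, and the share above them was not counted. Promoter sequences of Tet1, Tet2 and Zfp57 are given first, because these are the members that stood lower together. They come from RefSeq (GRCm38.p6), cover the 250 bases before the annotated start on the strand of the gene, and have each CpG, the dinucleotide that carries methylation, in capitals. Tet1 lies at chr10:62887325-62887574 on the minus strand, Tet2 at chr3:133544391-133544640 on the minus strand, and Zfp57 at chr17:37000913-37001162 on the plus strand.
Tet1: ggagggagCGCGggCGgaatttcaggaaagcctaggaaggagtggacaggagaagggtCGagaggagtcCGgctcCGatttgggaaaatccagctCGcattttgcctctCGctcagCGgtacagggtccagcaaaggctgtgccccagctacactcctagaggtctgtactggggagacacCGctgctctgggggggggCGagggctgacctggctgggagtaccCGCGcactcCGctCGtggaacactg
Tet2: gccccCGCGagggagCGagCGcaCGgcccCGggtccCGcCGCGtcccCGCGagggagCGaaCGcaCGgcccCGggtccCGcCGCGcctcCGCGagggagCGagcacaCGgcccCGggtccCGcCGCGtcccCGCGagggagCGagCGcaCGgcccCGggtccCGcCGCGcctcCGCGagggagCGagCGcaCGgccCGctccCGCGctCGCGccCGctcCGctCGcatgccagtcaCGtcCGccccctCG
Zfp57: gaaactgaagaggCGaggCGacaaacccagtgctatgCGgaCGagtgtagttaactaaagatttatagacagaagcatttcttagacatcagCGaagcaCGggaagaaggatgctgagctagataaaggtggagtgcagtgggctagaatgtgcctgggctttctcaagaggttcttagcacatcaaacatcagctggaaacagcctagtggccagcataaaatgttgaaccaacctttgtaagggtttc

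The 3 promoters differed in their CpG content. The Tet2 window held 51 CpGs, more than 99.9% of 32851 RefSeq promoter windows of this length. The Tet1 window held 15, more than 72.7% of them. The Zfp57 window held 6, which is the median of all windows, and the other 2 annotated Zfp57 starts had 7 and 3. The GC box GGGCGG, searched on both strands and containing a CpG itself, occurred 1 time each before Tet1 and Tet2, in none of the Zfp57 windows, and in 32.7% of all windows. The octamer ATGCAAAT, searched on both strands, was found in none of the 18 windows of the 9 genes that matched, and in 1.6% of all windows. Among the writers, the windows of Dnmt3a held up to 40 CpGs, that of Dnmt3b 21 and those of Dnmt3l between 3 and 5.

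The arrays of replicate number 1 and those of replicate number 2 form 2 sets that stood apart. After taking away each group mean, same-numbered arrays deviated together across genes (r from 0.558 to 0.693 over the 3 pairs of groups), so each difference is also given within set 1 and within set 2. All 10 stem cell markers looked for were measured, and their lowest value on any array, 7.42, lay above the median gene (5.71 to 5.79). The 18 measured feeder fibroblast markers, of 19 looked for, had levels down to 2.93 and were higher in set 2 by a mean of 0.727, 16 of 18 of them in that direction, and the stem cell markers lower by 0.25, 9 of 10 in that direction. In whole cultures fewer cells of a type and less RNA per cell cannot be told apart.

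**Figure D1:**
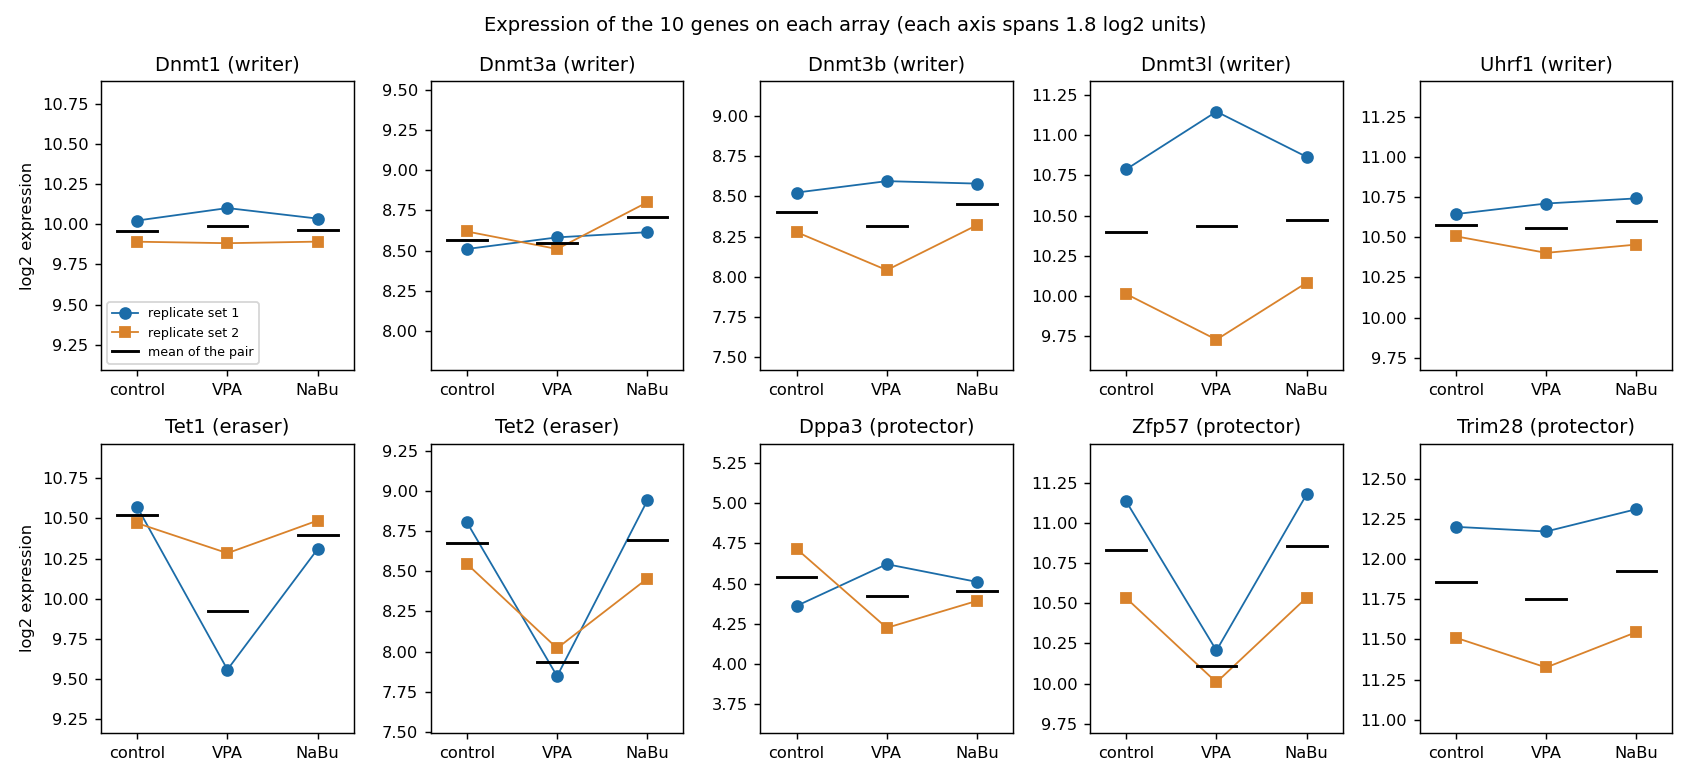
Log2 expression of each of the 10 genes (vertical axes, each 1.8 log2 units high) on the 6 arrays, by treatment; circles are replicate set 1, squares are replicate set 2, lines join the arrays of a set and black bars are group means of 2 arrays. Tet1, Tet2, Zfp57 and Trim28 are lowest with VPA within both sets, and Dnmt1 spans 0.219 over all arrays. Dnmt1, Dnmt3b, Dnmt3l, Uhrf1 and Trim28 separate by set, and the share of all genes that do so was not counted.

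The first comparison set VPA-treated against untreated cells kept under self-renewal conditions. With VPA the erasers Tet1 and Tet2 stood at 66.0% and 59.8% of their untreated level and the protector Zfp57 at 60.5%. The maintenance writers Dnmt1 and Uhrf1 stood at 102.4% and 98.7%, and the de novo writers Dnmt3a, Dnmt3b and Dnmt3l between 94.4% and 102.6%. Trim28 stood at 92.9% and Dppa3 at 92.3%.

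None of these differences passed the test over all genes. In limma's model with 1 mean per group no gene on the array passed a Benjamini-Hochberg adjusted p of 0.05 (0% of 19938 genes, with 981 at an unadjusted p under 0.05). With the replicate number as a block none passed either (0%, with 2636 at an unadjusted p under 0.05). At an unadjusted p under 0.05, which does not survive correction, 3 of the 10 lay lower without the block, against 2.18% of all genes. The same 3 lay lower with the block, against 6.01%. Both VPA arrays lay below both control arrays for 3 of the 10, against 15.6% of all genes, and 4 of the 10 were lower in both sets, against 28%. The median difference of the 10 was -0.09, beside 0.01 for all genes. Because the members were chosen with earlier results known, the shares of all genes here and below are descriptions and not a test.

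Tet2, which starts the oxidation of methylcytosine, had levels of 8.81 and 8.55 in untreated cells, 7.85 and 8.02 with VPA, and 8.94 and 8.45 with NaBu. Its VPA arrays were the lowest of the 6 and did not overlap with the others. The log2 difference from control was -0.74 (95% interval -1.21 to -0.27), or 59.8% of the untreated level, with -0.96 in set 1 and -0.53 in set 2. With the block the interval was -1.11 to -0.38. The adjusted p was 0.964 without and 0.201 with the block, and Tet2 ranked number 77 of 19938 genes from the lowest moderated statistic of the blocked model.

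Tet1, the other eraser, had levels of 10.57 and 10.47 in untreated cells, 9.56 and 10.28 with VPA, and 10.31 and 10.49 with NaBu. The VPA array of set 1 stood far below the rest, and the VPA array of set 2 lay just under the other 4. The log2 difference was -0.60 (95% interval -1.18 to -0.02), made up of -1.01 in set 1 and -0.19 in set 2. The adjusted p was 0.964, and 0.252 with the block. Without VPA replicate 1 the blocked difference was -0.26. Tet1 has 3 probesets with its symbol alone, and they gave similar values. The other 2 had VPA differences of -0.53 and -0.67, with -0.87 and -1.12 in set 1 and -0.19 and -0.23 in set 2. These probesets were read from the same arrays, so they do not add replicates.

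The third member of the eraser family, Tet3, is not among the 10 and stood at 5.60 and 5.66 in untreated cells, 5.71 and 5.74 with VPA, and 5.88 and 5.94 with NaBu. Its VPA difference was 0.10 (adjusted p 0.751 with the block), against -0.74 for Tet2 and -0.60 for Tet1. On the control and VPA arrays Tet3 was dim, under the median gene (5.73 and 5.76 in untreated cells, 5.78 and 5.79 with VPA). Whether the Tet genes differ from each other in response was not tested.

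Zfp57, the reader of methylated imprinting control regions, had levels of 11.13 and 10.53 in untreated cells, 10.21 and 10.01 with VPA, and 11.18 and 10.54 with NaBu. The VPA arrays were the lowest of the 6, although Zfp57 also differed between sets. The log2 difference was -0.73 (95% interval -1.40 to -0.06), or 60.5% of the untreated level, with -0.93 in set 1 and -0.52 in set 2. With the block the interval was -1.04 to -0.41, the adjusted p was 0.201 against 0.964 without it, and the gene ranked number 36 from the lowest.

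The size of these 3 differences rested partly on which VPA array was used. In the blocked model without VPA replicate 2, which leaves 1 VPA array and 1 residual degree of freedom, Tet2 stood at -1.02 (adjusted p 0.0104), Zfp57 at -0.94 (0.0115) and Tet1 at -0.94 (0.0141). This model called 3.88% of all genes. It assumes that the lone VPA array varies like the other groups. Without VPA replicate 1 the blocked values were -0.47 for Tet2 and -0.51 for Zfp57, and none of the 10 passed.

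Stem cell markers also stood lower with VPA. Of the 10 markers, 9 lay below 0 in both sets, and their mean difference was -0.38. Within the sets it was -0.49 (set 1) and -0.27 (set 2). Their mean level was 10.64 and 10.33 on the control arrays, 10.15 and 10.05 with VPA, and 10.60 and 10.25 with NaBu. The feeder markers had a mean difference of 0.03, with 12 of 18 above 0 (-0.10 in set 1 and 0.16 in set 2). Their mean level was 6.72 and 7.31 on the control arrays and 6.62 and 7.47 with VPA. The part of either in the values of Tet1, Tet2 and Zfp57 was not tested.

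Trim28, the corepressor that Zfp57 recruits, showed another pattern. Its levels were 12.20 and 11.51 in untreated cells, 12.17 and 11.33 with VPA, and 12.31 and 11.55 with NaBu. The arrays split by set, and within each set the VPA array was the lowest. The VPA difference was -0.11, with -0.03 in set 1 and -0.19 in set 2. The blocked model gave an interval of -0.36 to 0.14 and an adjusted p of 0.733. Dppa3 was dim on this array, between 4.22 and 4.72 and under the median gene on every array. Its VPA difference was -0.12 (blocked interval -0.51 to 0.28), with 0.26 in set 1 and -0.49 in set 2. A second Dppa3 probeset, between 4.19 and 4.73, gave a VPA difference of -0.002 and a NaBu difference of -0.25, against -0.09 for NaBu in the first.

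**Figure D2:**
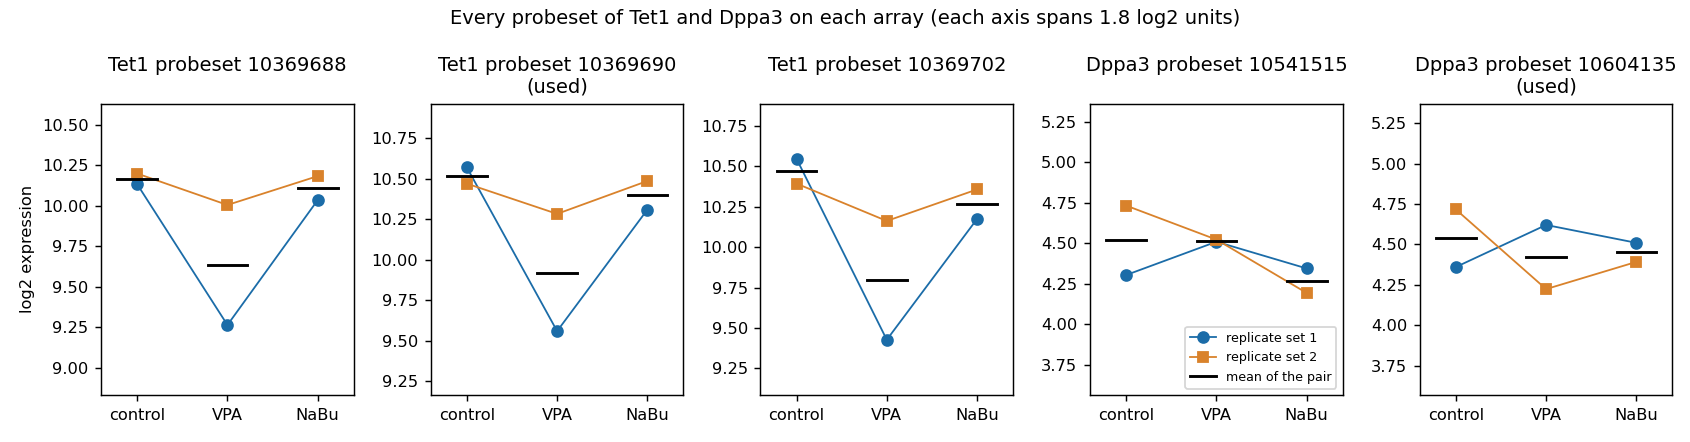
Log2 expression of the 3 probesets of Tet1 and the 2 of Dppa3 (vertical axes, each 1.8 log2 units high) by treatment; circles are replicate set 1, squares replicate set 2 and black bars group means. All 3 Tet1 probesets have their lowest value on VPA replicate 1 (9.26, 9.56 and 9.43), whereas those of Dppa3 lie between 4.19 and 4.73 on all arrays.

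The maintenance writers stood within a narrow range. Dnmt1 had levels of 10.02 and 9.89 in untreated cells, 10.10 and 9.88 with VPA, and 10.04 and 9.89 with NaBu, a span of 0.219 over all arrays. Its VPA difference was 0.03, with a blocked interval of -0.21 to 0.28. Uhrf1 had levels of 10.64 and 10.51 in untreated cells, 10.71 and 10.40 with VPA, and 10.74 and 10.45 with NaBu. Its VPA difference was -0.02, with a blocked interval of -0.27 to 0.24, and the VPA and control arrays overlapped for both genes. The adjusted p with the block was 0.932 for Dnmt1 and 0.965 for Uhrf1.

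The de novo enzymes with VPA overlapped with the untreated arrays as well. Dnmt3a had levels of 8.51 and 8.62 in untreated cells, 8.58 and 8.51 with VPA, and 8.61 and 8.80 with NaBu, and a VPA difference of -0.02 (blocked interval -0.28 to 0.25). Dnmt3b had levels of 8.52 and 8.28 in untreated cells, 8.60 and 8.04 with VPA, and 8.58 and 8.32 with NaBu. Its VPA difference was -0.08 (blocked interval -0.36 to 0.20), with 0.07 in set 1 and -0.24 in set 2. These intervals hold differences in either direction, so they do not show that the levels were equal.

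Dnmt3l, the catalytically inactive partner, had the widest span of the 10, 1.42 log2 units. Its levels were 10.79 and 10.01 in untreated cells, 11.15 and 9.73 with VPA, and 10.86 and 10.08 with NaBu. The VPA arrays were at once the highest and the lowest of the 6. The within-set differences pointed apart, 0.36 in set 1 and -0.28 in set 2, so the pooled value of 0.04 (blocked interval -0.35 to 0.42) averages opposite signs. None of the 5 writers lay on the same side of 0 in both sets with VPA. Among all 19938 genes 5582 lay below 0 in both sets and 6372 above 0 in both, and the rest did neither. The mean of the writers was 0.13 in set 1 and -0.15 in set 2, against -0.98 and -0.36 for the 2 erasers.

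**Figure D3:**
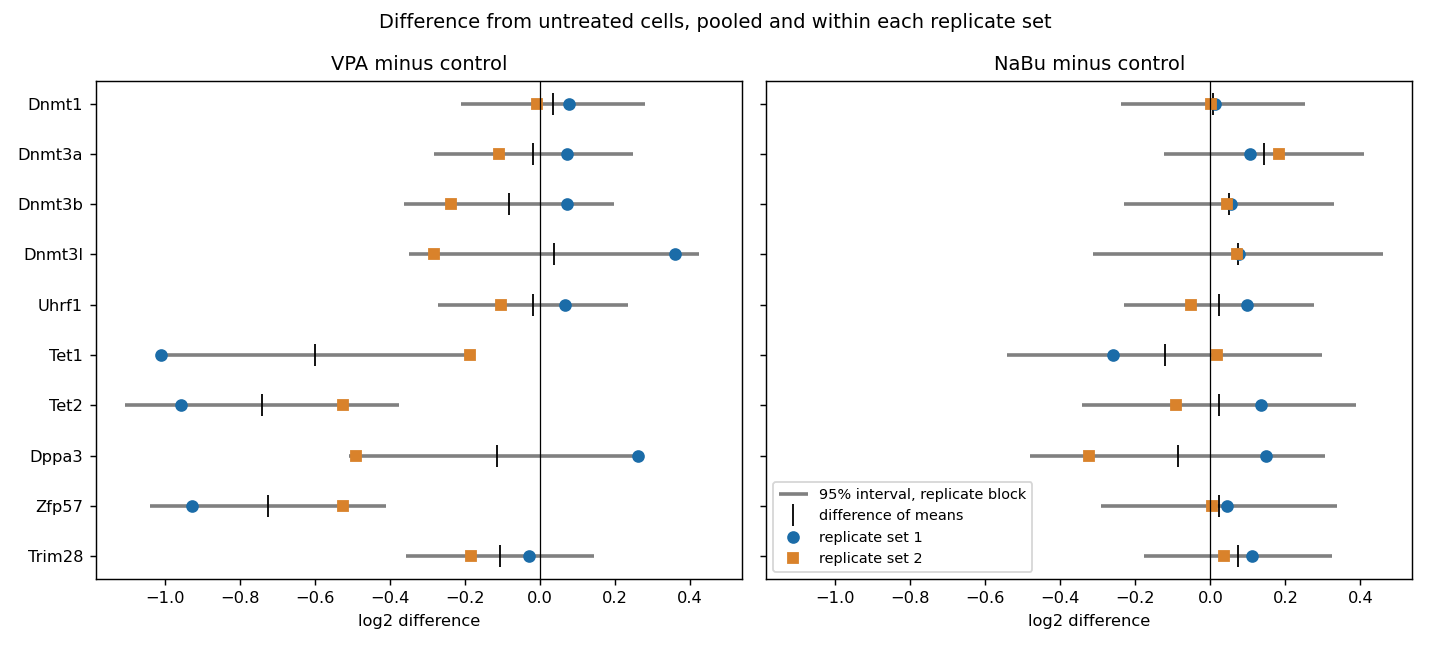
Log2 difference from untreated cells (horizontal axis) for each gene, with VPA on the left and NaBu on the right; black ticks are differences of group means, grey bars 95% intervals of the model with the replicate block, circles set 1 and squares set 2. With VPA the bars of Tet1, Tet2 and Zfp57 lie below 0 before correction over all genes, and with NaBu all 10 bars include 0.

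The second comparison set NaBu-treated against untreated cells. The 10 log2 differences ran from -0.12 (Tet1) to 0.14 (Dnmt3a). Tet2 stood at 0.02 (blocked interval -0.34 to 0.39) and Zfp57 at 0.02 (-0.29 to 0.34), against -0.74 and -0.73 for VPA. Tet1 stood at -0.12 (-0.54 to 0.30), with -0.26 in set 1 and 0.02 in set 2. Dnmt3a had its highest level of the 6 arrays on NaBu replicate 2, and differences of 0.10 and 0.18 within the sets. The other writers stood at 0.01 for Dnmt1, 0.02 for Uhrf1, 0.05 for Dnmt3b and 0.07 for Dnmt3l, and Trim28 at 0.07. The VPA and NaBu differences share the same control arrays.

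For NaBu no gene on the array passed an adjusted p of 0.05 in limma without the block (0%, 311 genes at an unadjusted p under 0.05) or with it (0%, 916 genes). None of the 10 had an unadjusted p under 0.05 with the block, where 2.2% of all genes lay lower and 2.4% higher. None of the 10 was lower in both sets, against 23.1% of all genes, and 6 were higher in both, against 29.1%. The median difference was 0.02, beside 0.01 for all genes.

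The 2 treatments were also set against each other, in the same model over all 6 arrays, so the control arrays enter the spread behind the intervals and p-values. Their doses differed, so this describes the treatments as given and not the compounds at a matched dose. Tet1, Tet2 and Zfp57 stood at 71.8%, 58.9% and 59.5% of their NaBu level with VPA. The VPA arrays are those of the first comparison, so these values are not an independent repeat of it. No gene passed an adjusted p of 0.05 in limma without the block (0%, 724 genes at an unadjusted p under 0.05) or with it (0%, 2150 genes). With the block 3 of the 10 had an unadjusted p under 0.05 and lay lower with VPA, against 5.27% of all genes, and 6 were lower in both sets, against 28.6%. Both VPA arrays lay below both NaBu arrays for 4 of the 10, against 14.6%.

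These 4 were Tet1, Tet2, Zfp57 and Dnmt3a. Tet2 stood lower with VPA than with NaBu by -0.76 (95% interval -1.24 to -0.29), with -1.09 in set 1 and -0.43 in set 2. Zfp57 stood at -0.75 (-1.42 to -0.08), with -0.97 and -0.53, and ranked number 11 of 19938 from the lowest in the blocked model. Tet1 stood at -0.48 (-1.05 to 0.10), with -0.75 in set 1 and -0.20 in set 2. Dnmt3a stood at -0.16 (-0.46 to 0.14), with -0.03 and -0.29. When 1 array was left out Tet1 ranged from -0.8393 (without VPA replicate 2) to -0.1147 (without VPA replicate 1). Dnmt3a ranged from -0.2716 to -0.0516, without VPA replicate 1 and 2 in turn and with the block. The blocked adjusted p was 0.362 for Tet2 and Zfp57, 0.430 for Tet1 and 0.638 for Dnmt3a. Without VPA replicate 2 the blocked model called Tet1, Tet2 and Zfp57 (adjusted p 0.038, 0.0188 and 0.0193), together with 1.82% of all genes. Their values were then -0.82, -1.04 and -0.96, against -0.13, -0.49 and -0.54 without VPA replicate 1, where none passed.

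Trim28, Dnmt3l, Dnmt3b, Uhrf1 and Dnmt1 each had all 3 arrays of set 2 below all 3 of set 1. The share of all genes with this split was not counted, so the split is not shown to be particular to these genes. In the blocked model 3 of the 10 differed between sets at an adjusted p under 0.05, against 11.6% of all genes, and all 3 were lower in set 2. Trim28 stood lower by -0.77 (95% interval -0.97 to -0.56, adjusted p 0.00217) and Dnmt3l by -0.99 (-1.31 to -0.68, adjusted p 0.00466). Zfp57 stood lower by -0.48 (-0.74 to -0.22, adjusted p 0.0311). Dnmt3b stood at -0.35 (adjusted p 0.0584), Uhrf1 at -0.24, Tet2 at -0.19, Dnmt1 at -0.16 and Dppa3 at -0.05, while Tet1 stood at 0.27 and Dnmt3a at 0.07. Over the same arrays the feeder markers were higher in set 2 by 0.727, and their part in the set differences was not tested. Feeder markers also had a mean NaBu difference of 0.15, with 15 of 18 above 0.

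Other genes of the pathway were taken from 6 lists, of which 62 of 70 genes were measured. None passed an adjusted p of 0.05 for VPA or for NaBu, with or without the block. With VPA 43 of the 62 lay below 0, 34 of them in both sets, and the median was -0.12. With NaBu 44 lay above 0, 28 of them in both sets, and the median was 0.04. Among all 19938 genes 9370 lay below 0 with VPA, 5582 of them in both sets, and 10829 lay above 0 with NaBu, 5803 of them in both sets. The median of all genes was 0.01 in both comparisons. The lists too were chosen with earlier results known, so these counts are descriptions.

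**Figure D4:**
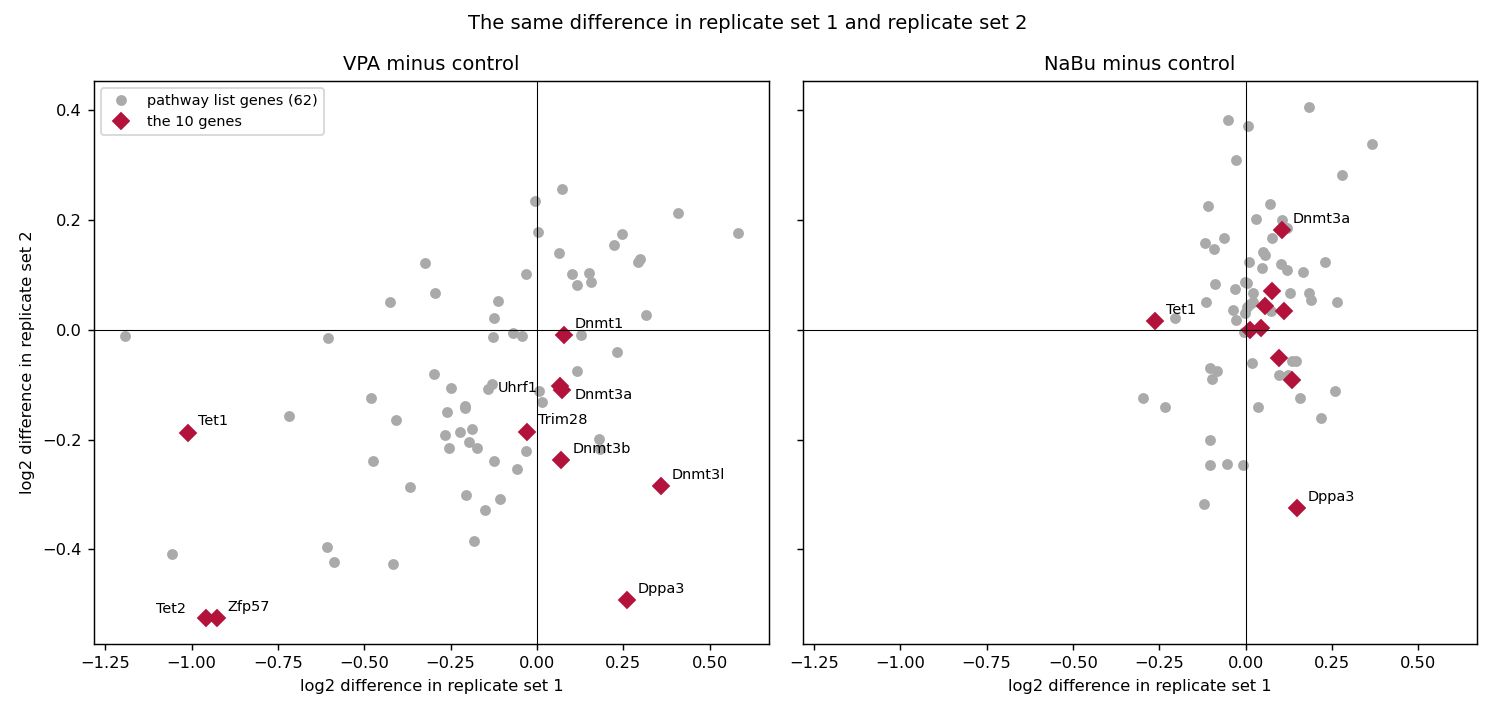
Log2 difference from untreated cells in replicate set 1 (horizontal axis) and set 2 (vertical axis) for the 10 genes (diamonds) and 62 genes of the pathway lists (grey points), with VPA on the left and NaBu on the right; the axes have different scales. Tet2 and Zfp57 lie together at the lower left with VPA, at -0.96 and -0.93 in set 1, and near 0 with NaBu.

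Among genes that act after the Tet enzymes or on cytosine itself, 12 of 18 lay below 0 with VPA and the median was -0.19. Apobec3, a cytidine deaminase that restricts retroviruses, had levels of 8.74 and 8.39 in untreated cells and 7.68 and 7.98 with VPA, a difference of -0.73. Ung, the glycosylase that removes uracil from DNA, stood at -0.50, with -0.61 in set 1 and -0.40 in set 2, and the deaminase Apobec1 at -0.42. Their blocked adjusted p lay between 0.201 and 0.206. With NaBu Ung stood at -0.22 and Tet3 at 0.28, with 0.28 in both sets. For this list the NaBu median was 0.05.

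Partners of maintenance methylation lay below 0 in 7 of 9 cases with VPA, with a median of -0.13. Cdca7, a partner of the remodeller Hells, had levels of 9.98 and 9.44 in untreated cells, 9.40 and 9.02 with VPA, and 9.95 and 9.48 with NaBu. Its VPA difference was -0.51 (blocked adjusted p 0.201), with -0.59 and -0.42 within the sets, and its NaBu difference was -0.0001. The DNA ligase Lig1 stood at -0.18 with VPA. The chromatin assembly subunits Chaf1a and Chaf1b stood at 0.13 and -0.15 with NaBu.

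Partners of the silencing complex around Trim28 lay below 0 in 12 of 14 cases with VPA, 10 of them in both sets, and above 0 in 12 of 14 with NaBu, 5 of them in both sets. The VPA median was -0.16. The heterochromatin protein Cbx5 stood at -0.31, with -0.60 in set 1 and -0.01 in set 2, and Morc3 at -0.21. With NaBu Zfp445, another zinc finger protein that protects imprints, stood at 0.30 and the methyltransferase Suv39h2 at 0.18. With VPA Zfp445 stood at 0.11, against -0.73 for Zfp57.

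In the list of de novo and silencing partners 7 of 11 lay below 0 with VPA. Dppa2, which is expressed in pluripotent cells, stood at -0.33 and the histone methyltransferase Nsd1 at -0.44, while the RNA methyltransferase Trdmt1, also called Dnmt2, stood at 0.38. Trdmt1 also stood at 0.35 with NaBu, and Smchd1, which helps to silence the inactive X chromosome, at 0.15. Readers of methylated DNA had a VPA median of -0.04 over 6 genes, with Mbd3 at -0.20 and Zbtb38 at -0.19. With NaBu Zbtb4 stood at -0.19 and Zbtb33 at 0.16. Of the 4 measured genes of methyl donor supply 3 lay above 0 with VPA. Mat2b stood at -0.29 and Ahcyl1 at 0.21, and all 4 lay above 0 with NaBu.

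Prdm14 is known to hold down Dnmt3b and Dnmt3l in mouse embryonic stem cells. Its levels were 7.54 and 7.02 in untreated cells and 5.86 and 6.21 with VPA, a difference of -1.25, with -1.69 in set 1 and -0.81 in set 2. On the same arrays Dnmt3b stood at 0.07 in set 1 and -0.24 in set 2, and Dnmt3l at 0.36 and -0.28. Whether the level of Prdm14 bears on either gene was not tested. Pou5f1, which encodes Oct4, stood at -0.64. The blocked adjusted p was 0.201 for both.

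The genes whose levels over the 6 arrays were most like those of a member were sought among 10212 genes with an SD of at least 0.15. Zfp57 was followed most closely by Zfp423 (r = 0.995), Usp40 (0.995) and Morc3 (0.994), the last of which is in the list of Trim28 partners. Zfp423 had levels of 7.78 and 7.33 in untreated cells, 7.06 and 6.80 with VPA, and 7.84 and 7.33 with NaBu. Dnmt3l was followed by Grhl2 (0.997), Heatr1 (0.996) and Liph (0.995), and Grhl2 had levels of 6.61 and 5.73 in untreated cells and 6.97 and 5.36 with VPA. For the dim Dppa3 the closest was Fate1 (0.944), itself between 2.82 and 3.28. The 6 points share treatment and replicate set, so these values are descriptions.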

How the data were processed

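Expression was measured on 6 one-colour Affymetrix arrays, 2 per group. The authors deposited log2 levels for each probeset. The submitters' processing notes name RMA and Affymetrix Expression Console version 1.1. Neither RMA settings nor a genome build is given in the sources used here. Only 2 arrays per group limit the precision.

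Of 35556 probesets, 21789 had 1 gene symbol in the platform annotation, 1621 several and 12146 were not listed. The highest-mean probeset stood for each of 19938 genes. limma 3.58.1 in R 4.3.3 (lmFit, eBayes) compared group means over all 6 arrays (3 residual degrees of freedom), with Benjamini-Hochberg adjustment over all genes and a threshold of 0.05, checked on simulated data. A second model had the replicate number as a block (2 residual degrees of freedom). The labels number the replicates but do not say that they are separate cultures, so p-values measure the spread between samples only. The pairing comes from the values: same-numbered arrays deviated together (r = 0.558 control and VPA, 0.693 control and NaBu, 0.567 VPA and NaBu). An exact permutation test of 2 against 2 arrays cannot go below 0.333 and was not used. Members, lists and rules were chosen with earlier results of these data known. Named genes are the 10, the 2 of each list with the largest blocked statistic for each compound, Prdm14, Pou5f1, and the 3 most correlated with Dnmt3l, Dppa3 and the member with the largest blocked VPA statistic. Tet3 is named as one of the list genes. List genes without a probeset carrying their symbol alone were not used here. Promoters matched 9 of 10 members by symbol. Alternatives were the block, median centring, quantile normalization, a filter on dim genes, eBayes with trend, the mean of all probesets, and leaving out each array with and without the block.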

Additional observations from a re-analysis of the deposited data

How the results depend on the processing

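Each difference was recomputed under 18 alternatives (17 for Dppa3, which a filter at the median level removed). Tet1, Tet2 and Zfp57 stayed lower with VPA than with control and than with NaBu under each of the 18. Many of the alternatives could not reverse them. The block, the filter on dim genes and eBayes with trend keep each difference by design. Leaving out an array without the block cannot change a sign where both VPA arrays lie below both others, as for these genes. When 1 array was left out, Tet1 ranged from -0.9615 to -0.237 against control. Tet2 then ranged from -1.015 to -0.4685 and Zfp57 from -1.027 to -0.4253. The replicate block kept every difference, called 0 genes in each comparison, and lowered the smallest adjusted p for VPA from 0.964 to 0.201. Small differences changed sign. Median centring subtracts from each array its median gene. That was 5.73 and 5.76 in untreated cells, 5.78 and 5.79 with VPA, and 5.71 and 5.79 with NaBu. For the other alternatives the cause was not tested. Median centring put Dnmt1 at -0.002191 (VPA minus control) and -0.00725 (VPA minus NaBu). Quantile normalization put Uhrf1 at 0.03237 and Tet2 at -0.009474 against control (VPA and NaBu respectively), and Dnmt3l at 0.02206 and Uhrf1 at 0.01903 for VPA minus NaBu. The mean of all probesets put Dppa3 at 0.1093 for VPA minus NaBu.

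Leaving out each array in turn, with and without the block, gave for VPA minus control 0 to 774 genes called and a median of the 10 from -0.337 to 0.1085. The ranges were -0.07512 to 0.1436 for Dnmt1, -0.1283 to 0.09165 for Dnmt3a and -0.3597 to 0.1942 for Dnmt3b. The range was -0.6723 to 0.7473 for Dnmt3l, -0.1722 to 0.1349 for Uhrf1, -0.4225 to 0.1903 for Dppa3 and -0.5302 to 0.3162 for Trim28. The same gave for NaBu minus control 0 to 1 genes called and a median of the 10 from -0.1334 to 0.1728. The range was -0.06539 to 0.07792 for Dnmt1, -0.07939 to 0.1788 for Dnmt3b, -0.3177 to 0.4653 for Dnmt3l and -0.1207 to 0.1668 for Uhrf1. The range was -0.3977 to 0.1532 for Tet1, -0.2208 to 0.265 for Tet2, -0.3937 to 0.2191 for Dppa3, -0.2973 to 0.3452 for Zfp57 and -0.31 to 0.4552 for Trim28. It gave for VPA minus NaBu 0 to 363 genes called and a median of the 10 from -0.325 to 0.1246. The range was -0.08139 to 0.1373 for Dnmt1, -0.4094 to 0.1445 for Dnmt3b and -0.7462 to 0.6735 for Dnmt3l. The range was -0.1953 to 0.1119 for Uhrf1, -0.2865 to 0.2288 for Dppa3 and -0.6028 to 0.2436 for Trim28.

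The models that leave out an array with the block have 1 residual degree of freedom, and the lone array is assumed to vary like the other groups. Without VPA replicate 2 and with the block 774 genes were called for VPA minus control and 363 for VPA minus NaBu, the 3 members Tet1, Tet2 and Zfp57 among them in each. Without control replicate 2 and with the block, 7 genes were called for VPA minus control, 1 for NaBu minus control and 1 for VPA minus NaBu, where leaving out control replicate 1 also gave 1. No array left out without the block gave a call. Dppa3 lay under the median gene on every array, and its value rests on a dim signal.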
